A study of Mus musculus with 4 samples.

Results

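The 8 genes described here encode Ets transcription factors and were put together as Ets genes of epithelium: Elf3, Elf5, Ehf, Elf1, Elf2, Ets1, Ets2 and Gabpa. They were set by name, as 8 of 21631 protein-coding genes, and every anti-p53 CUT&RUN peak with its midpoint inside the RefSeq gene interval or within 5 kb of it was collected. That gave 135 of 317986 peaks. CUT&RUN releases short DNA fragments with a protein A-MNase fusion that is held at chromatin by an antibody, and it was run on 500000 medullary thymic epithelial cells per condition. The cells were mTEClo (2 libraries) and mTEChi (2 libraries), isolated from thymi of mice aged 4 to 5 weeks by EpCAM enrichment and sorting, and both carried the genotype Trp53-WT. By usual definition mTEClo cells are low in surface MHC class II, and mTEChi cells, among them the Aire-expressing ones, are high in it. According to the titles the antibody recognised p53, but the protocol of the same samples gives BAF155, a chromatin remodelling subunit, so "anti-p53" serves only as the name of the peaks.

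Ets factors bind DNA through a winged helix domain, the ETS domain, that reads a GGAA core, and family members differ in the bases they prefer around it and in their partners. Elf3, Elf5 and Ehf form an epithelial branch, in which Elf3 and Ehf serve barrier epithelia and Elf5 mammary and placental lineages. Elf1 and Elf2 belong to a broadly expressed branch, Ets1 and Ets2 respond to Ras signalling, and Gabpa is the DNA-binding subunit of GABP, a regulator of mitochondrial and housekeeping genes. The series is titled as a study of p53 repression and chromatin accessibility in thymic epithelium. The question put to the lists here was where the signal fell at these genes in each cell state.

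List length was 89809 and 69359 peaks for mTEClo (replicate 1, then 2), against 73510 and 85308 peaks for mTEChi. Sequencing depth is unknown, no control-antibody library was analysed here, and a list from sorted bulk cells does not tell a site cut in few cells from one cut weakly in many. Nothing in the labels tells whether the 2 replicates of a state came from different mice, so p-values cover only how far these 4 libraries differ, and that may be technical variation. With 2 libraries against 2, the two-sided exact permutation test cannot give a p below 0.333. Genes of thymic epithelium (Epcam, Foxn1, Krt5, Krt8, Krt14 and Psmb11) had a peak in 5 and 6 of 6 cases in mTEClo, against 5 and 6 in mTEChi, and the 4 genes of mature medullary cells (Aire, Cd80, Cd40 and H2-Aa) had one in every list. Of 10 thymocyte genes, 9 and 10 had a peak in mTEClo, against 6 and 9 in mTEChi, with 16 and 18 peaks in all in mTEClo, against 12 and 24 in mTEChi. Cd4, Cd8a, Cd8b1 and Rag1 had none in mTEChi replicate 1. Of 6 B cell and myeloid genes, 4 and 5 had a peak in mTEClo, against 3 and 5 in mTEChi, with 17 and 10 peaks in mTEClo, against 15 and 17 in mTEChi. Beside these counts, 75.5% and 68.8% of all protein-coding genes had a peak in mTEClo, against 69.3% and 73.0% in mTEChi. A peak at a gene is not a level of its RNA, and the part of other cells in the results below was not tested.

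Peaks lay at 7 of the 8 genes in every library, and the exception was Ets2, which had peaks in both mTEChi libraries and in neither mTEClo library. By library, 7 and 7 members had a peak in mTEClo (75.5% and 68.8% of all protein-coding genes), against 8 and 8 in mTEChi (69.3% and 73.0%). Over all protein-coding genes, 51.9% had a peak in all 4 libraries, 1.67% in both mTEChi libraries alone and 2.14% in both mTEClo libraries alone. No member had peaks in mTEClo alone. Both mTEClo libraries called 7 members against 63.1% of all genes, and both mTEChi libraries called 8 against 61.2%. The members had longer windows than most genes, with a median of 49.4 kb against 27.3 kb, and the part of window length in these counts was not tested.

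The number of peaks at the 8 genes was 35 and 29 in mTEClo, against 31 and 40 in mTEChi, replicate 1 before replicate 2 here and below. Per 10000 peaks of a list this was 3.90 and 4.18 in mTEClo, against 4.22 and 4.69 in mTEChi. Both mTEClo values thus lay below both mTEChi values. Peaks in the windows of all protein-coding genes made up 6080 and 6006 per 10000 in mTEClo, against 5942 and 5951 in mTEChi, also without overlap but in the opposite direction. The means were 4.04 ± 0.201 in mTEClo and 4.45 ± 0.334 in mTEChi (SD, n = 2 each), a difference of -0.414 (two-sided exact permutation test, p = 0.333, the smallest this design allows). The difference was -0.0426 when the 5 kb margins were left out (exact permutation test, p = 1), -0.178 without mTEChi replicate 2, -0.272 without mTEClo replicate 1 and -0.650 without mTEChi replicate 1.

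**Figure D1:**
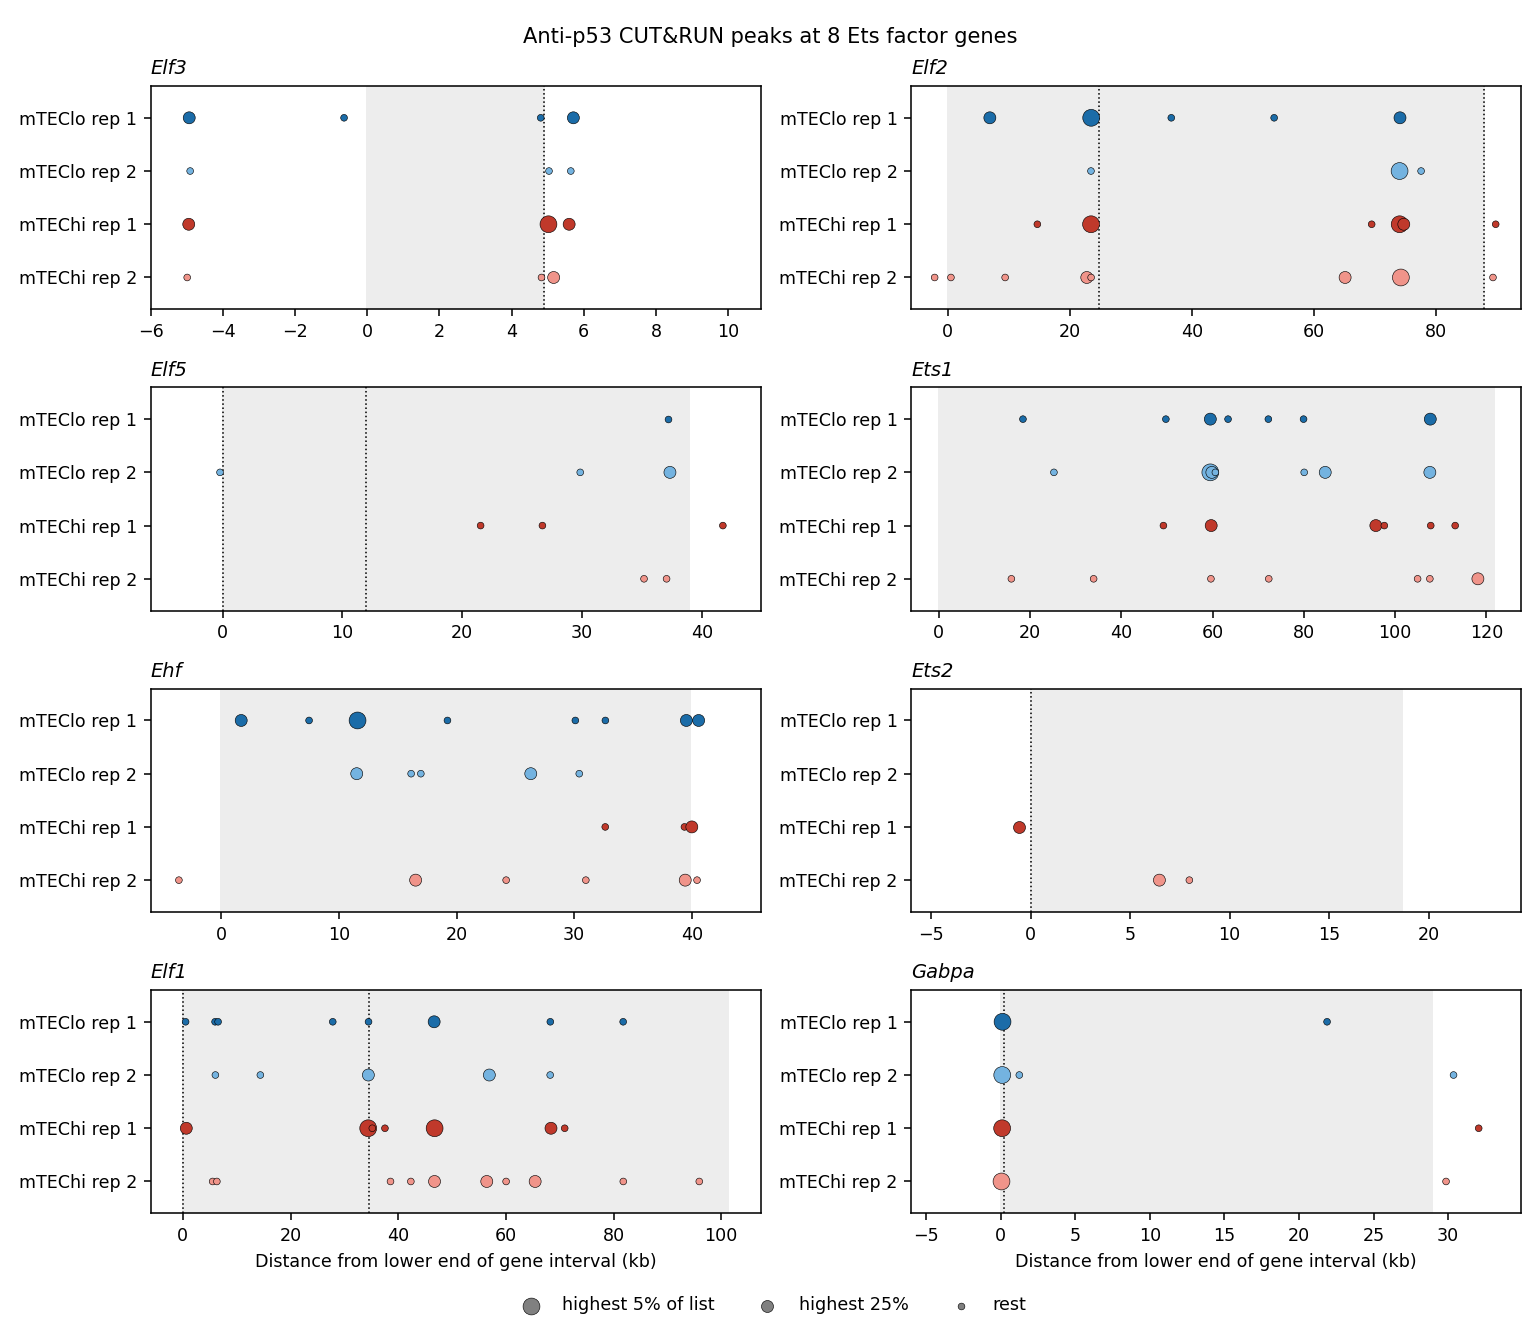
Peak midpoints at each of the 8 genes, by library (mTEClo rows above mTEChi rows), against distance in kb from the lower coordinate of the gene interval (grey), with circle size for the place of the peak in its list and dotted lines at RefSeq starts. Columns of circles at 1 position in all 4 rows are seen at Elf3, Elf2, Ets1 and Gabpa, whereas the 3 Ets2 peaks are all in mTEChi rows and at different positions.

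The score deposited with a peak orders peaks within its own list, so each peak is given here by its place, the percentage of its list that stands above it, with ties at their middle. The median place of the best peak of the 8 genes was 12.8% and 12.3% in mTEClo, against 5.43% and 11.9% in mTEChi, with a gene that had no peak set to the end of the list. For all protein-coding genes the medians were 31.4% and 41.98% in mTEClo, against 38.9% and 31.5% in mTEChi. A best peak is taken over the whole window, and the members had longer windows than most genes. The part of window length in these places was not tested. The members' means were 12.6% ± 0.410 in mTEClo and 8.65% ± 4.56 in mTEChi (SD, n = 2 each), a difference of 3.90 percentage points (two-sided exact permutation test, p = 0.333). It was 0.668 without mTEChi replicate 1 and 7.12 without mTEChi replicate 2, and within the gene intervals alone the direction turned, to -1.66.

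**Figure D2:**
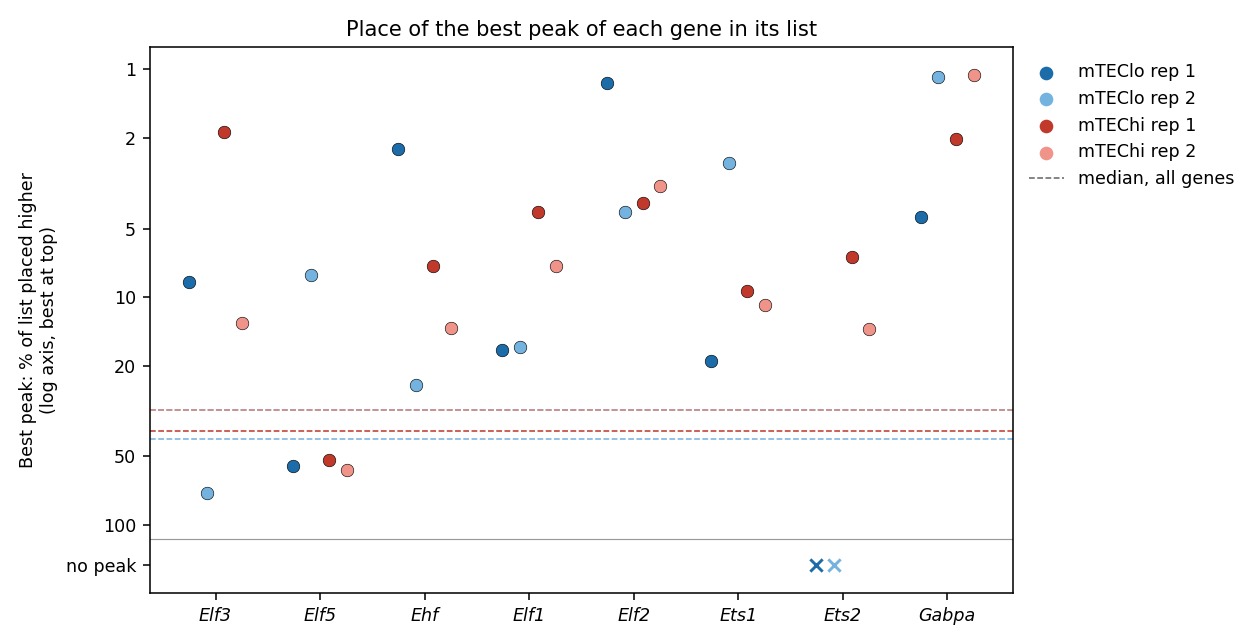
Place of the best peak of each gene in its list (log axis, percentage of the list standing above the peak, best at the top), with 4 points per gene in the order mTEClo replicates 1 and 2, mTEChi replicates 1 and 2, crosses for no peak, and dashed lines at the medians of all protein-coding genes. All 4 points of Elf2 and Gabpa lie above the 5% mark, and 3 of the 4 points of Elf5 lie below the dashed lines.

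Peaks of the 4 lists that share at least 1 bp were joined into sites, giving 90 sites at the 8 genes. Of these, 7 held a peak of all 4 libraries and 7 (7.78%, against 3.74% at all genes) a peak of 3, together 15.6% of the sites, against 6.58% of 149174 sites in the windows of all protein-coding genes. Sites of all 4 libraries alone made up 7.78% at the members and 2.84% at all genes. A site in both mTEClo libraries and no mTEChi library was found 2 times (2.22%, against 3.04% at all genes), and one in both mTEChi libraries alone was not found among the 90 (2.04% at all genes). A single mTEClo and a single mTEChi library shared 5 sites (5.56%, against 5.73%). Sites of at least 2 libraries came to 23.3% at the members, against 17.4% at all genes, and the remaining 69 sites had a peak in 1 library (76.7%, against 82.6%). Sites of 1 library made up 1 of 4 at Elf3, 14 of 16 at Elf2 and 3 of 3 at Ets2. The mTEClo libraries shared 14 of their 34 and 28 member sites and the mTEChi libraries 9 of their 31 and 39, and 1 library of each state shared 9 to 14. The sites of all 4 libraries fell at 4 genes, 2 each at Elf3, Elf2 and Ets1 and 1 at Gabpa. A site of that kind lay in the window of 22.6% of all protein-coding genes, and at least 2 such sites in 3.16%.

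**Figure D3:**
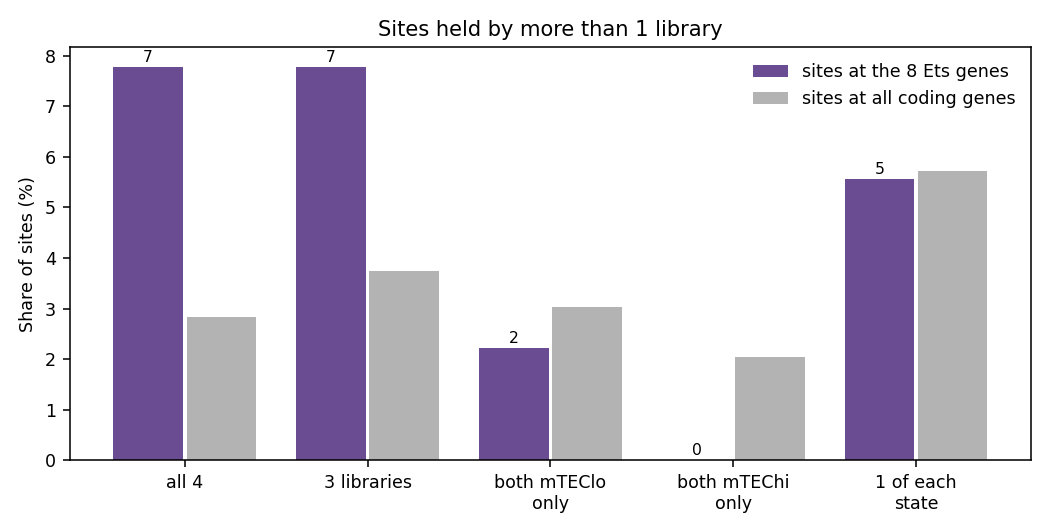
Share of sites (%) held by more than 1 library, for the 90 sites at the 8 Ets genes (purple, with the number of sites) and the 149174 sites at all protein-coding genes (grey). Sites of 3 or 4 libraries took a larger share at the Ets genes (15.6%) than at all genes (6.58%), while the classes held by 1 state alone were at 2.22% and 0.

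Of the 7 sites that every library held, 2 were found near an end of the gene (within 1 kb), at Elf3 and Gabpa, and 5 were farther away. At all protein-coding genes, 61.7% of sites of that kind were near the end of any gene, and 14.5% of genes had one near an end of their own. Sites of 3 libraries were near an end in 2 of 7 cases at the members, beside 37.9% at all genes. Sites of 2 libraries were so in 2 of 7, beside 20.7%, so the member count was not below that of all genes in every class. In these shares of sites, an end of any gene counted at all genes, but only an end of the member itself at the members. Among single peaks, the share within 1 kb of an end of the member was 20.0% (95% Wilson interval 10.0 to 35.9) and 13.8% (5.50 to 30.6) in mTEClo and 22.6% (11.4 to 39.8) and 17.5% (8.75 to 32.0) in mTEChi. For peaks at all protein-coding genes an end of any such gene counted, a wider rule. Their share was 20.9% and 19.0% in mTEClo, against 19.4% and 16.7% in mTEChi. The intervals cover counting error only and contain the values of all genes. The states' means of 16.9% ± 4.39 in mTEClo and 20.0% ± 3.59 in mTEChi (SD, n = 2 each) differed by no more than the replicates of a state did (p = 0.667, two-sided, exact permutation test). The difference of -3.14 percentage points was -6.25 without mTEClo replicate 1, -0.0403 without mTEClo replicate 2, -0.603 without mTEChi replicate 1 and -5.68 without mTEChi replicate 2.

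Elf3 (chromosome 1, 135253574 to 135258472, minus strand), whose product drives epithelial differentiation and responds to inflammation in barrier tissues, was the shortest of the 8 genes and the one most densely covered. It had 4 and 3 peaks in mTEClo, against 3 and 3 in mTEChi. These come to 2.69 and 2.01 peaks per 10 kb of window in mTEClo, against 2.01 and 2.01 in mTEChi. The mean of 2.18 stood at the 99.6th percentile of all protein-coding genes. The gene took up 4.90 kb of its 14.9 kb window, and the part of the margins in this density was not tested. Around the start of the gene lay a site of all 4 libraries, with summits 90 bp inside the gene and 139 bp before it in mTEClo, against 124 and 268 bp before it in mTEChi. Its places, by the best peak of each library, were 36.0% and 72.5% in mTEClo, against 1.87% and 13.0% in mTEChi. By that peak both mTEChi libraries placed it higher. In mTEChi replicate 2 a second peak of the site lay 69 bp inside the gene, near the summit of mTEClo replicate 1. It stood at 82.5%, lower than the 36.0% of mTEClo replicate 1. Within the gene interval alone, 2 libraries had an Elf3 peak, mTEClo replicate 1 and mTEChi replicate 2. The 300 bp around this start are shown because peaks of all 4 libraries cover them in part. They run from 250 bp before the start to 50 bp after it on the minus strand (chr1:135258423-135258722, GRCm38.p6, the mm10 assembly, from RefSeq), and capitals mark the Ets core GGAA on either strand.
Elf3 start: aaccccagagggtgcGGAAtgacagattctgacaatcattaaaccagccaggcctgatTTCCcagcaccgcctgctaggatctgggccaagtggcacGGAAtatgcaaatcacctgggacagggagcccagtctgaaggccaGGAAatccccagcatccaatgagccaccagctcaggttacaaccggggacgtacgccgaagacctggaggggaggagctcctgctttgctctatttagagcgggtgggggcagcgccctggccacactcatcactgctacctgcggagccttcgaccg

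The Elf3 window held 4 matches to the core, beginning 235, 192, 153 and 108 bp before the start. The core is short, and 95.7% of 21045 promoter windows of protein-coding genes of the same length held at least 1 match, 45.4% of them at least 4. A second upstream site, with summits 814 and 743 bp before the start in mTEClo and 697 bp before it in mTEChi replicate 1, had no peak of mTEChi replicate 2. It stood at 8.63% and 73.2% in mTEClo and at 5.55% in mTEChi replicate 1. Beyond the 3′ end of the gene lay another site of all 4 libraries, with summits 4931 and 4905 bp from the end in mTEClo, against 4944 and 4987 bp in mTEChi, just inside the 5 kb limit. Its places were 8.87% and 90.2% in mTEClo, against 7.26% and 26.2% in mTEChi. At each of these 3 sites, by the best peak of each library, mTEClo replicate 2 had the lowest place of the libraries that held it. The peaks nearest to the limit on its other side lay beyond the upper end of Elf1, at 5150 and 5348 bp in mTEClo and at 5020, 5078 and 5394 bp in mTEChi (replicates 2, 1 and 2), close to the lower end of the neighbouring gene Sugt1. Rnpep begins 4227 bp from the upper end of Elf3, and no Elf3 peak lay in it.

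**Figure D4:**
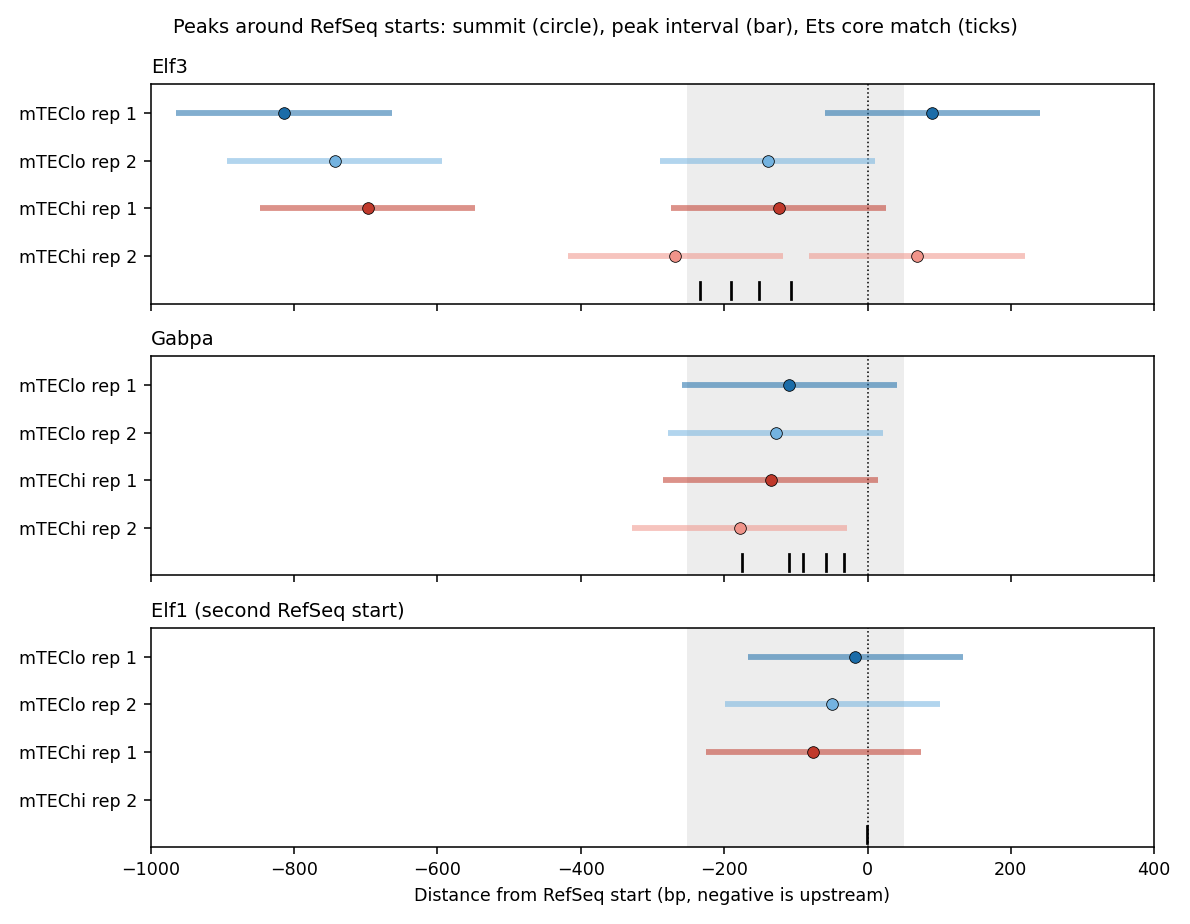
Summits (circles) and peak intervals (bars) by library around RefSeq starts of Elf3, Gabpa and the second start of Elf1, against distance from the start in bp (negative is upstream); grey marks the 300 bp window and black ticks the Ets core matches in it. At Gabpa the 4 summits lie between 178 and 109 bp before the start, and at Elf1 no peak of mTEChi replicate 2 is seen. At Elf3 the summits of the site at the start spread from 268 bp before it to 90 bp after it. Those of a further Elf3 site lie 697 to 814 bp before the start.

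Ehf (chromosome 2, 103263431 to 103303275), the second gene of the epithelial branch, had 8 and 5 peaks in mTEClo, against 3 and 6 in mTEChi. Per 10000 peaks of a list this was 0.891 and 0.721 in mTEClo, against 0.408 and 0.703 in mTEChi. By this share mTEClo stood higher without overlap, by a small margin, as at 15.4% of all protein-coding genes. The peak numbers themselves overlapped. A site inside the gene, 11.6 kb from its lower end (chromosome 2, 103274800 to 103275169), was held by both mTEClo libraries and by neither mTEChi library. The summits at 103275019 and 103274950 were 69 bp apart, at 2.24% in mTEClo replicate 1, where this was the best Ehf peak, and at 24.3% in mTEClo replicate 2, where a peak at 103289744 inside the gene was tied with it. The best mTEChi peaks lay at the upper end of the gene, 158 bp outside it in replicate 1 (7.27%) and 403 bp inside it in replicate 2 (13.7%). The first of these was a site of that library alone. Outside that end, mTEClo replicate 1 (738 bp, 17.1%) and mTEChi replicate 2 (603 bp, 48.85%) shared a further site. Inside that end lay a site of 3 libraries, with places of 12.8% in mTEClo replicate 1 and 59.6% and 13.7% in mTEChi replicates 1 and 2, and mTEClo replicate 2 had no peak within 1 kb of the end. The strand of Ehf and Ets1 is not given in the tables used here, so their ends are named by coordinate.

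Elf5 (chromosome 2, 103412098 to 103450989), known from the mammary gland and the trophoblast, starts 108823 bp from the end of Ehf and had the lowest best place of the 7 genes with peaks in every list in 3 of the 4 libraries. There were 1 and 3 peaks in mTEClo, against 3 and 2 in mTEChi. The best stood at 55.4% and 7.995% in mTEClo, against 51.8% and 57.8% in mTEChi, so 3 of 4 fell past the middle of their list. A site 1701 bp inside the upper end held peaks of both mTEClo libraries (55.4% and 7.995%) and of mTEChi replicate 2 (57.8%). At the first start a peak was found in mTEClo replicate 2 alone, 210 bp upstream (48.8%), and the window of the second start overlapped no peak in any list. Beyond the upper end, a peak of mTEChi replicate 1 at 103453845 (91.1%) lay beside Cat, the catalase gene, which begins 2915 bp from Elf5.

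Elf1 (chromosome 14, 79481174 to 79582491), a factor of many tissues that is best studied in blood cells, had no site of all 4 libraries but 4 sites of 3 libraries. It had 8 and 5 peaks in mTEClo, against 7 and 10 in mTEChi. Per 10000 peaks of a list this was 0.891 and 0.721 in mTEClo, against 0.952 and 1.17 in mTEChi. By this share mTEClo stood lower without overlap, as at 13.7% of all protein-coding genes, whereas the peak numbers themselves overlapped. The best Elf1 peak also stood lower in both mTEClo libraries, at 17.1% and 16.5%, than in both mTEChi libraries, at 4.22% and 7.27%. The best peak lay at a site 46.7 kb from the lower end in mTEClo replicate 1 and in both mTEChi replicates, with summits at 79527849, 79527933 and 79527917. RefSeq gives Elf1 2 starts, and they differed. The window of the first start, where Elf1 overlaps Wbp4 by 95 bp, met no peak in any list, and the nearest summits, 475 bp downstream in mTEClo replicate 1 and 602 bp in mTEChi replicate 1, lay in and beside the tRNA gene n-TEttc4.

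The window of the second Elf1 start was met by peaks of both mTEClo libraries and of mTEChi replicate 1, with summits 17 and 49 bp before the start in mTEClo and 76 bp before it in mTEChi. Their places were 31.4% and 16.5% in mTEClo and 4.56% in mTEChi replicate 1, and mTEChi replicate 2 had no peak there. Of 21045 promoter windows of protein-coding genes, 21.1% met peaks of at least 3 libraries. On the promoter windows of the table, 9 windows of 6 members, peaks met 3 and 4 in mTEClo (34.1% and 24.3% of all windows), against 3 and 2 in mTEChi (28.3% and 25.0%). The sequence of this second start is shown because the signal lay there and not at the first start (chr14:79515424-79515723, plus strand, GRCm38.p6, from RefSeq); capitals mark the Ets core.
Elf1 second start: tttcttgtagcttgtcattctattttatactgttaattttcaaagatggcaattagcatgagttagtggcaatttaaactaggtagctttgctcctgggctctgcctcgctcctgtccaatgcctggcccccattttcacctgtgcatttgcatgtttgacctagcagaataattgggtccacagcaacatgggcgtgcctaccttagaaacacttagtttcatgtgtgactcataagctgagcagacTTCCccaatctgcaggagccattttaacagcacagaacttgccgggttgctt

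This Elf1 window held 1 match to the Ets core and 1 to the AP-1 motif TGACTCA, searched on both strands, which begins 23 bp before the start and overlaps no Ets core. The AP-1 motif was found in 4.69% of the promoter windows. A match is a description of the sequence and not of a bound factor. The window lies inside the interval of the pseudogene Gm9243 as well, so the 2 features cannot be told apart there. The same holds for the site 46.7 kb from the lower end of Elf1, where 3 libraries had their best Elf1 peak.

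Elf2 (chromosome 3, 51252720 to 51340683, minus strand), the close relative of Elf1, had 5 and 3 peaks in mTEClo, against 6 and 8 in mTEChi, or 0.557 and 0.433 per 10000 peaks in mTEClo, against 0.816 and 0.938 in mTEChi. The states did not overlap, with mTEClo lower, as at 13.7% of all protein-coding genes by peaks per 10000. Of the 8 genes it had the best place in its weakest library, with best peaks at 1.14% and 4.21% in mTEClo, against 3.87% and 3.25% in mTEChi. A place at least that high in all 4 libraries was found for 4.93% of protein-coding genes. The Elf2 window was 98.0 kb long, and the part of its length in this place was not tested. The peaks stood on 2 sites of all 4 libraries, both inside the gene. One, 13.8 kb from the upper end (chromosome 3, 51326615 to 51327127), had places of 9.76% and 4.21% in mTEClo, against 3.87% and 3.25% in mTEChi. The other (chromosome 3, 51276035 to 51276372) lay 1292 to 1329 bp downstream of the second RefSeq start, and its 4 summits fell within 37 bp of each other. Its places were 1.14% and 35.1% in mTEClo, against 4.22% and 99.8% in mTEChi, so replicates of a state differed more than the states. Neither start of Elf2 had a peak over its 300 bp window, as for 52.9% of the promoter windows of protein-coding genes. The lncRNA gene 4930577N17Rik lies inside the Elf2 interval and met no peak of the window. Noct, which ends 1066 bp from the lower end of Elf2, held a peak of mTEChi replicate 2 at 51250566 (40.02%).

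**Figure D5:**
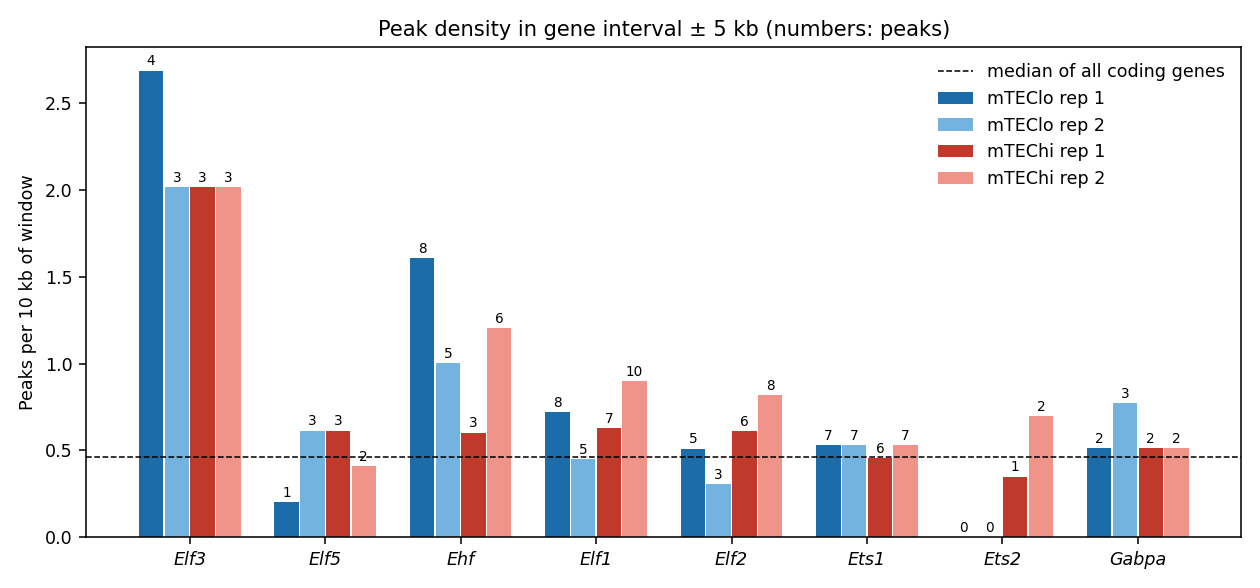
Peaks per 10 kb of window (gene interval with 5 kb on each side) for each gene, with bars in the order mTEClo replicates 1 and 2, mTEChi replicates 1 and 2, the number of peaks on each bar, and the median of all protein-coding genes as a dashed line. Elf3 stands highest at 2.01 to 2.69 and Ets2 lowest, with 0 in both mTEClo libraries.

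Ets1 (chromosome 9, 32636241 to 32757820), which is needed for lymphocyte development and is strongly expressed in thymocytes, had 7 and 7 peaks in mTEClo, against 6 and 7 in mTEChi, all of them inside the gene. Its density of 0.532 and 0.532 peaks per 10 kb in mTEClo, against 0.456 and 0.532 in mTEChi, was near the median of all genes, 0.463. Sites of all 4 libraries lay 59.7 kb from the lower end and 13.9 kb from the upper end (chromosome 9, 32695606 to 32696242 and 32743686 to 32744181). The first had places of 19.0% and 2.57% in mTEClo, against 11.1% and 40.02% in mTEChi, and the second had 23.1% and 7.995% in mTEClo, against 29.1% and 33.3% in mTEChi. The best Ets1 peaks of mTEChi lay elsewhere, at 32732007 in replicate 1 (9.40%) and at 32754359 in replicate 2 (10.8%). Thymocyte genes had peaks in these lists as given above, and their part in the Ets1 signal was not tested. A further site, at 32716025 to 32716466, was held by both mTEClo libraries alone, with places of 42.1% and 56.2%. No peak lay within 1 kb of either end of Ets1 in any list, or at the lncRNA gene Gm31928, 3454 bp from its lower end.

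Ets2 (chromosome 16, 95702407 to 95721049), a target of MAP kinase signalling with a known role in the placenta, had no peak in either mTEClo list, against 1 and 2 peaks in mTEChi. That of mTEChi replicate 1 lay 603 bp before the start at 95701804 and stood at 6.64%. Those of mTEChi replicate 2 lay inside the gene, at 95708878 (13.8%) and 95710382 (67.6%). The libraries of mTEChi thus shared no Ets2 site, and the call of the gene in mTEChi alone rested on peaks at least 7074 bp apart. It was not seen with the 5 kb margins left out, where mTEChi replicate 1 had no peak, or with margins of 25 kb, where all 4 libraries had one. The lncRNA gene Gm31989, 1559 bp before Ets2, overlapped none of these peaks.

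Gabpa (chromosome 16, 84834891 to 84863783) had 2 and 3 peaks in mTEClo, against 2 and 2 in mTEChi, and the best of each list fell on 1 site at the start of the gene (chromosome 16, 84834796 to 84835165). The summits lay 109 and 128 bp before the RefSeq start at 84835124 in mTEClo, against 135 and 178 bp before it in mTEChi, within 69 bp of each other. The places were 4.43% and 1.08% in mTEClo, against 2.02% and 1.06% in mTEChi, so the states overlapped. Peaks of all 4 libraries met 12.2% of the promoter windows of protein-coding genes. Gabpa shares this stretch with Atp5j, which encodes a subunit of mitochondrial ATP synthase and whose interval overlaps that of Gabpa by 967 bp on the opposite strand, so the site cannot be given to 1 of the 2 genes. The sequence is shown because the best peaks of all 4 lists fell on it (chr16:84834874-84835173, plus strand, GRCm38.p6, from RefSeq), with the Ets core in capitals.
Gabpa start: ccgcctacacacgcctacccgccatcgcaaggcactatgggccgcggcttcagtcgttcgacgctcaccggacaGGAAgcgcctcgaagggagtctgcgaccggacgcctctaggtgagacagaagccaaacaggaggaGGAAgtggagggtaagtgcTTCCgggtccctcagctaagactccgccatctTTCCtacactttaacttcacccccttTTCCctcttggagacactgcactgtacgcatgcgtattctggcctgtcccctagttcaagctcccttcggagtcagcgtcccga

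The Gabpa window held 5 matches to the Ets core, beginning 176, 111, 92, 60 and 34 bp before the start, and 28.2% of promoter windows held at least 5. The summit of mTEClo replicate 1, at 84835015, fell on the second match, at 84835013 to 84835016. Those of mTEClo replicate 2 (84834996) and of mTEChi (84834989 and 84834946) fell on none of the matches. The longer GABP type motif CCGGAAGT, found in 5.20% of promoter windows, was not in this window on either strand, nor in the other 8 member windows. The p53 decamer motif, searched by its consensus on both strands, was in none of the 9 member windows, which cover 6 of the 8 genes, and in 7.37% of all promoter windows. The Sp motif GGGCGG was in 4 of the 9, both of Elf2, the first of Elf1 and that of Ets2, and in 46.7% of all windows. No match says only that these letters are not in a window.

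Set against the state labels gene by gene, the number of peaks per 10000 was higher in both mTEClo than in both mTEChi libraries at 2 genes, Elf3 and Ehf, as at 15.4% of all protein-coding genes. It was lower in both at 3, Elf1, Elf2 and Ets2, as at 13.7%. At Elf3, mTEClo replicate 2 and both mTEChi libraries had 3 peaks each. Its share of 0.433 in mTEClo replicate 2 thus stood above 0.408 and 0.352 in mTEChi through list length alone. At Ehf and Elf1 as well, the states overlapped in the number of peaks and parted only per 10000 peaks. Ehf had 8 and 5 peaks in mTEClo, against 3 and 6 in mTEChi. Elf1 had 8 and 5 in mTEClo, against 7 and 10 in mTEChi. The best peak stood lower in both mTEClo libraries at Elf1 and Ets2, as at 15.2% of all genes, and higher in both at none of the 8, as at 14.3%. No gene of 21631 could pass an adjusted p of 0.05 in this design (two-sided exact permutation test, smallest p 0.333), and all 8 members had an adjusted p of 1.

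The rest of the Ets family was called as follows. Of 20 further genes, 18 Ets factors and the GABP beta subunits Gabpb1 and Gabpb2, 19 and 17 had a peak in mTEClo, against 16 and 17 in mTEChi. Peaks in all 4 libraries were found at 11 of the 20, beside 51.9% of all genes, and none was called in both libraries of 1 state and neither of the other. The median place of their best peaks was 18.2% and 24.3% in mTEClo, against 31.4% and 11.9% in mTEChi, and their median window was 36.1 kb. A site of all 4 libraries lay in the window of 4 of the 20, and within 1 kb of a gene end at 1, Etv5, a factor downstream of growth factor signalling. The best Etv5 peaks stood at 0.512% and 9.34% in mTEClo, against 0.832% and 1.28% in mTEChi.

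By place in the 4 lists, the protein-coding genes most like Elf2, the member with the best place in its weakest library, were Ncapg, Lrrk1 and Spop. Their best ranks differed from those of Elf2 by 0.0440, 0.0848 and 0.0900 on average over the 4 libraries on the log10 scale. The ranks of Ncapg equalled those of Elf2 in both mTEClo libraries, at 1028 and 2922, where the scores were tied.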

How the data were processed

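Each library had 1 deposited peak list, called per library, of summits with 150 bp on each side. The build was mm10, and the tools named were MACS2 (2.2.7.1), SAMtools (1.9), Bowtie2 (2.2.9) and Picard, per the submitters' processing notes. Their settings and any control are not stated in these sources. The score deposited by the authors was taken to be −log10 of either a p-value or a q-value (minimum 2.00), which was not stated, and it only ranked peaks within a list. Depth is unknown.

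Coordinates are counted from 1. Gene intervals, without exons, and promoter sequences came from RefSeq (GRCm38.p6), so exon and intron classes were not assigned. All 54 genes of the lists matched by symbol. Distances ran to a start where that table gives one (6 of 8 members) and otherwise to a gene end. All members were named, with their best peaks, every site of all 4 libraries or of 1 state alone, neighbours, other Ets genes with a site of all 4 libraries near an end, and the 3 genes of most similar rank. Members and lists were chosen with earlier results of these data known. States were compared by two-sided exact permutation tests over libraries, and p-values over genes were adjusted by Benjamini-Hochberg. Alternatives were margins of 0, 1 and 25 kb, gene ends alone, the 10000 highest peaks, the upper part of each list by score (down to its median), equal list lengths, sites joined at 75 bp, each library left out, and the replicate number as a block. The steps were tested on simulated data. Computation used scipy 1.17.1, pandas 2.3.3 and numpy 2.4.6 under Python 3.11.15, and matplotlib 3.10.9 drew the figures.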

Additional observations from a re-analysis of the deposited data

How the results depend on the processing

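The lower peak share in mTEClo kept its direction in each setting tried (-2.50 to -0.0426 per 10000 peaks), as did the difference in the place of the best peaks except within the gene intervals alone (-1.66 percentage points). The share near gene ends turned to 0.285 with lists of equal length. The cause was not tested in either case.

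The 7 members with peaks in all 4 libraries became 3 with gene ends alone and 2 with the 10000 highest peaks (Elf2 and Gabpa). The 1 member called in mTEChi alone was 0 for the gene intervals alone and for 25 kb margins; it was Elf2 in place of Ets2 with gene ends alone, and Elf1 with the 10000 highest peaks. Sites of all 4 libraries fell to 3 with gene ends alone, 2 with the 10000 highest peaks, 4 with the peaks above the median score and 3 when midpoints had to lie within 75 bp. Sites of mTEClo alone numbered 4 with 25 kb margins, 0 with gene ends alone, 0 with the 10000 highest peaks, 1 with the peaks above the median score and 4 at 75 bp. Sites of mTEChi alone numbered 1 with 25 kb margins, 1 with the 10000 highest peaks and 2 at 75 bp. Leaving out a library lets 1 list suffice for its state: sites of mTEClo alone then ran from 4 to 16 and those of mTEChi alone from 0 to 25, the extremes being 16 without either mTEClo replicate and 25 without mTEChi replicate 1. The number of libraries with a peak at a single gene equalled the reported one in 40 cases under an alternative and differed from it in 16.

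With the replicate number as a block, the peak share difference was -0.414 and that of the place 3.90, each with an exact permutation p of 0.5, the smallest a block of 2 pairs allows. The labels do not say that a number marks a shared batch, and same-numbered libraries deviated from their state means with a correlation of -0.0446 over 21631 genes, so they were not treated as paired. Depth is unknown, and a gene without a peak may hold signal under the authors' limit.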

Other observations

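The genes of the GABP beta subunits, partners of Gabpa, were named after their values were seen. Gabpb1 had 1 and 0 peaks in mTEClo, against 4 and 8 in mTEChi, with best places of 23.1% in mTEClo replicate 1 and 16.9% and 2.98% in mTEChi. Gabpb2 had 2 and 1 peaks in mTEClo, against 6 and 2 in mTEChi, with best places of 23.1% and 42.4% in mTEClo, against 8.01% and 26.2% in mTEChi.

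Fli1 and Erg, Ets genes on the chromosomes of Ets1 and Ets2, were also chosen after their values were seen. Fli1 had 12 and 3 peaks in mTEClo, against 5 and 4 in mTEChi, and Erg had 8 and 5 in mTEClo, against 13 and 17 in mTEChi. Neither had a site of all 4 libraries. Erf, an Ets repressor, was likewise chosen after its values were seen. Its best places were 1.51% and 4.97% in mTEClo, against 1.59% and 1.92% in mTEChi.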
